A study of Mus musculus with 33 samples.

Results

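Bone marrow RNA of mice given venetoclax or ruxolitinib was read for 8 genes of blood stem and progenitor cells: Kit, Flt3, Cxcr4, Cd34, Runx1, Tal1, Mef2c and Ikzf1. All 8 of the 8 names were among the 750 endogenous probes, and all 8 were among the 655 genes tested. The marrow came from 33 female C57BL/6 mice of 6 to 8 weeks of age, 1 lane per mouse, and the whole tissue was used with no sorting of cells named in the labels. Venetoclax, an inhibitor of the survival protein BCL2, was given by mouth at 100 mg/kg 1 time a day for 2 days, and ruxolitinib, an inhibitor of the kinases JAK1 and JAK2, at 180 mg/kg 2 times a day for 2 days. There were 3 mice for each drug and 2 for the vehicle of each drug on each of days 1, 3 and 7 after treatment, and 3 untreated mice, which makes 13 groups. The doses stand as mg/ml in the series' design text and as mg/kg in the methods. The lanes were read in 3 runs of 11 lanes, 1 run for the mice of each day, with an untreated mouse in each. A drug and its vehicle thus stand in the same run, whereas differences between days and between runs cannot be told apart. The replicates are separate mice, and p-values measure the spread between them.

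Blood stem cells in the marrow divide into multipotent progenitors, which commit step by step to the myeloid, lymphoid, erythroid and megakaryocyte lineages. Kit, Flt3 and Cxcr4 are receptors that receive signals from the marrow niche: Kit binds stem cell factor, Flt3 binds Flt3 ligand, and Cxcr4 binds the chemokine Cxcl12, which holds stem cells and immature leukocytes in the marrow. Cd34 is a sialomucin on progenitors and on endothelial cells. Runx1, Tal1, Mef2c and Ikzf1 are transcription factors of the same cells: Runx1 is needed for blood stem cells to form in the embryo, Tal1 also serves the erythroid and megakaryocyte lineages, Mef2c the lymphoid and myeloid lineages, and Ikzf1, which encodes Ikaros, the lymphoid lineage. Most of these genes are also used by mature cells of the marrow. In RNA of whole marrow, fewer cells of a type and less RNA per cell cannot be told apart.

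Runx1, Tal1, Mef2c and Ikzf1 are themselves transcription factors with short recognition sequences, and the 250 bases before the start sites of all 8 genes were searched for those sequences on both strands. The 4 windows printed here are those with a match, with the match in capitals and each window written 5′ to 3′ along its gene. They are RefSeq sequences of build GRCm38.p6. The Flt3 window lies at chr5:147400490-147400739 on the minus strand, the Runx1 window at chr16:92826075-92826324 on the minus strand, the Mef2c window, before the third of 3 start sites, at chr13:83573357-83573606 on the plus strand, and the Tal1 window at chr4:115056176-115056425 on the plus strand.
Flt3: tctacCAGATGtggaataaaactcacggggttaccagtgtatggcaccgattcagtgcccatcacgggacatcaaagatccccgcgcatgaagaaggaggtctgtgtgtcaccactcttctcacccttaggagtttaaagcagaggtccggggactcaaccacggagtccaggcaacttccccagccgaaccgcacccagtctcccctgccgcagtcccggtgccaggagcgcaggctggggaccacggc
Runx1: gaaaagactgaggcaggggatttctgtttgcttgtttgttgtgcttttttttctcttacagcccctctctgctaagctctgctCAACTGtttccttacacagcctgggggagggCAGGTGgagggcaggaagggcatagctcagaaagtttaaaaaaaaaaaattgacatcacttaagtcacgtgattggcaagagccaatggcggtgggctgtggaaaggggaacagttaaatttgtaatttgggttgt
Mef2c: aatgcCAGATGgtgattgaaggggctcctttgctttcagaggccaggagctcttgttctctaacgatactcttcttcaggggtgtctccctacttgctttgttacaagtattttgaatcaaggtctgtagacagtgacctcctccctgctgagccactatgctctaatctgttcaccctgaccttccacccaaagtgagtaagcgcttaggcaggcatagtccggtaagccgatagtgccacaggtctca
Tal1: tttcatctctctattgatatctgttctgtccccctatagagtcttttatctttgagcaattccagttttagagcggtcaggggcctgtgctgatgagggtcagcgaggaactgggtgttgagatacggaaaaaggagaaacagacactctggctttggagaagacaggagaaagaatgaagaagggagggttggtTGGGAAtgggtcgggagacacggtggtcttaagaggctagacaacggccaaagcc
In the first 3 windows the capitals mark the E-box CAGNTG, a sequence that Tal1 recognises with its partners. It was found in 3 of the 14 windows of the 8 genes, 2 times in that of Runx1, and in 44.82% of all 32851 windows of the same length. In the Tal1 window the capitals mark TGGGAA, which contains the core of the Ikaros sequence. It was found in 1 of the 14 windows and in 21.59% of all windows. The Runx1 sequence TGTGGT, in 14.05% of all windows, and a loose form of the consensus of the MEF2 family, in 3.202%, were found in 0 of the 14 windows. Each was searched on both strands. A match describes letters and is not a measured binding site, and the windows before the other start sites were searched in the same way. The guanine and cytosine content of the 14 windows ran from 33.6% to 82%, where the median of all windows was 52.4%.

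The depth differed between the mice. The endogenous total of a lane ran from 18056 to 466096 counts with a median of 158944. Background, the mean plus 2 SD of the negative control probes of a lane, ran from 1.83 to 7.85 counts. There were 2 lanes with fewer than 30000 counts, those of venetoclax replicate 1 on day 1 and ruxolitinib replicate 1 on day 3. Levels are given as normalised counts, that is counts divided by a factor from 11 housekeeping probes. Each gene has 1 probe and probes differ in efficiency, so that levels are compared between mice and not between genes. Runx1, Cxcr4 and Ikzf1 were above background in 33 of 33 lanes, and Cd34, Tal1 and Mef2c in 31. Kit was above background in 26 lanes with a median raw count of 9, and Flt3 in 24 lanes with a median raw count of 8, so that small changes of these 2 receptors were not detectable at this depth. Marrow markers were present in the untreated mice, with 297 ± 359 (SD, n = 3) normalised counts of Elane, a granule protease of promyelocytes, and 88.3 ± 24.1 of Igll1, a gene of B cell precursors.

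**Figure D1:**
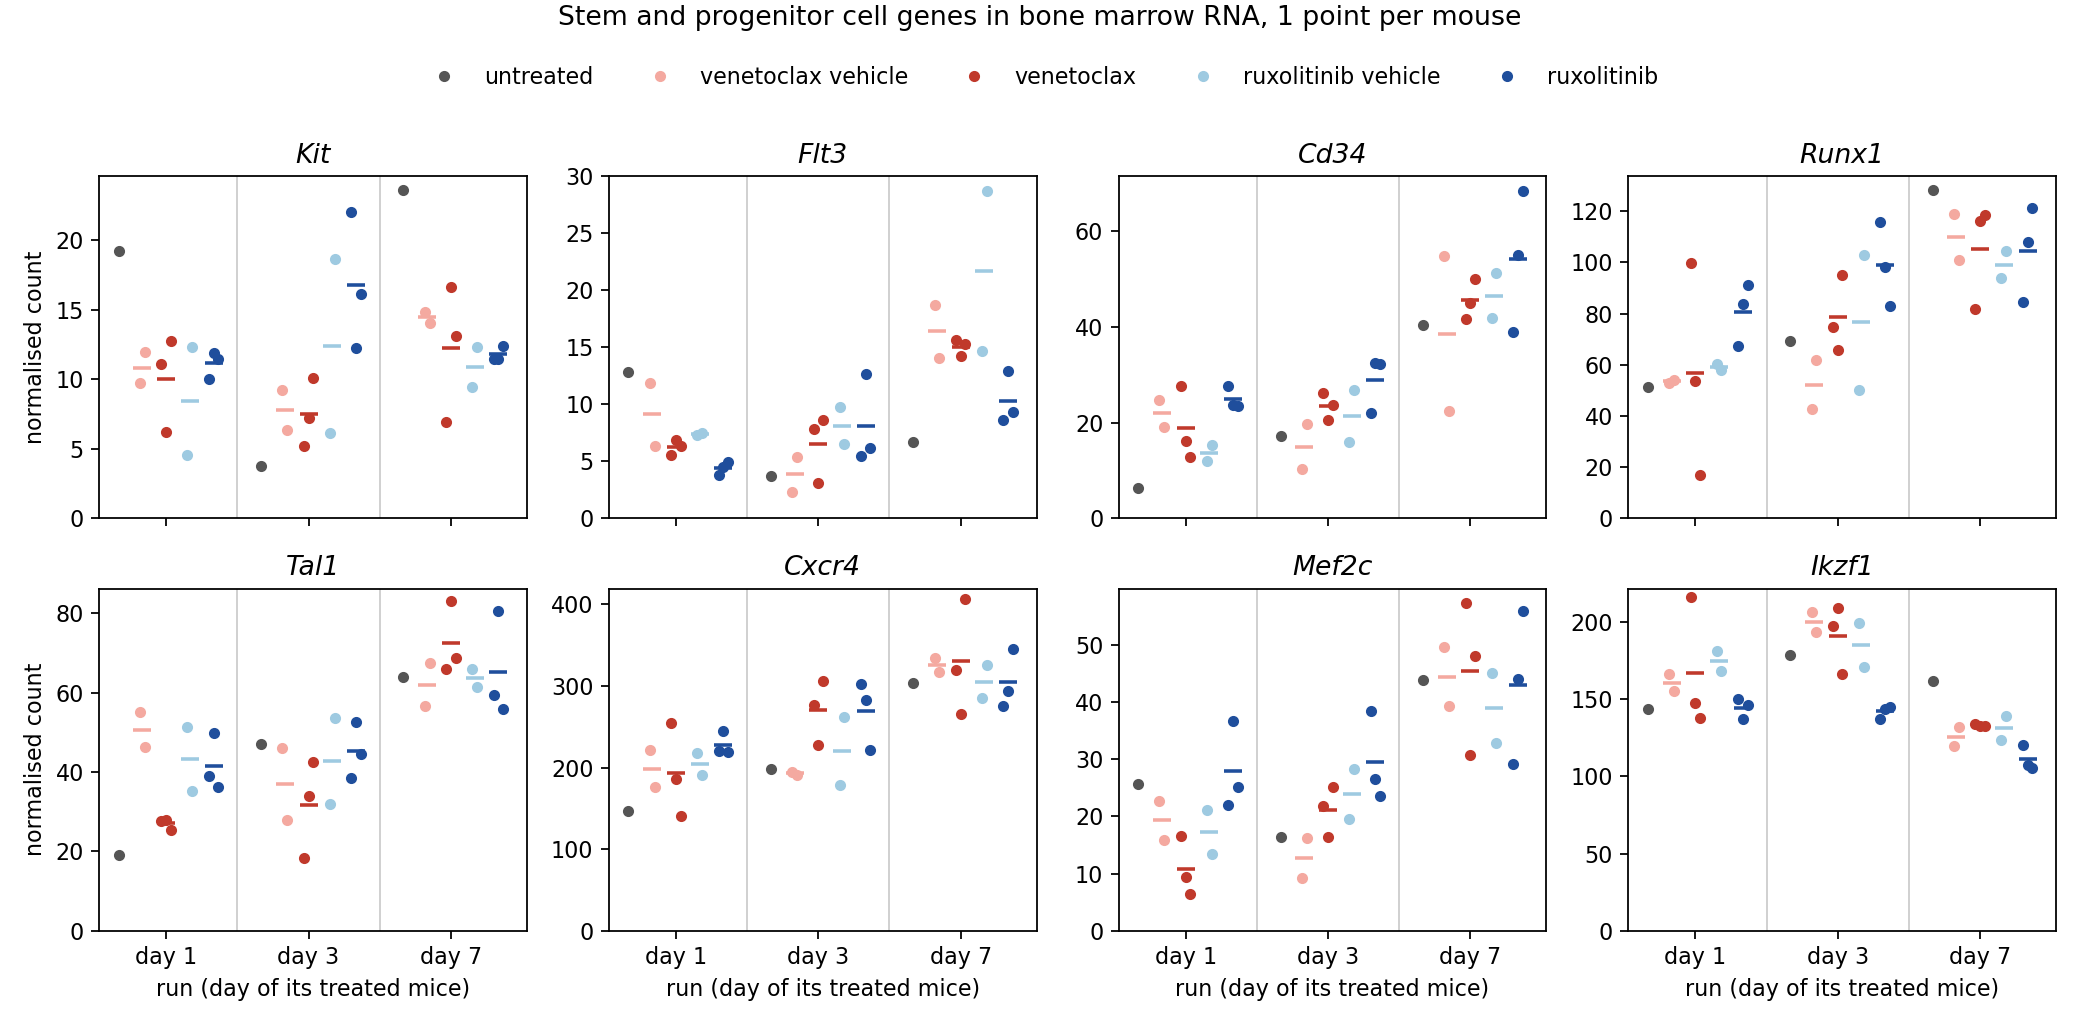
Normalised counts of the 8 genes in each of 33 mice (linear y axis from 0), arranged by run, which is also the day of the treated mice. Points are single mice, short lines are group means, and the single untreated mouse of each run stands first. For Flt3, Cd34, Runx1, Tal1, Cxcr4 and Mef2c all 4 treated day 7 groups are among the 4 highest group means, and for Ikzf1 the 4 day 7 groups are the lowest.

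The first question was whether either drug changed the genes compared to its vehicle. No member passed an adjusted p of 0.05 in any of the 6 comparisons, in which the share of all tested genes that passed was 0.153%, 0% and 0.153% for venetoclax and 2.75%, 0.153% and 0.153% for ruxolitinib in the order of the days (edgeR quasi-likelihood test). At an unadjusted p under 0.05, 2 of 8 members stood out after venetoclax on day 1 (68 of 655 genes, 10.4%), 2 of 8 after ruxolitinib on day 1 (89 genes, 13.6%) and 1 of 8 after ruxolitinib on day 7 (23 genes, 3.51%). The 3 other comparisons had 0 of 8, where 70 (10.7%), 31 (4.73%) and 31 (4.73%) of all genes were under that limit for day 3 and day 7 of venetoclax and for day 3 of ruxolitinib. DESeq2 and limma also called 0 of 8 members in all 6. In the order of the days DESeq2 called 0%, 0.153% and 0.153% of all genes for venetoclax and 2.29%, 0.305% and 0.153% for ruxolitinib. By limma 0% of all genes passed, except after ruxolitinib on day 1 (0.763%) and day 3 (0.153%). The averages over the 3 days had 0 of 8 members called, where 2.9% of all genes passed for venetoclax and 1.22% for ruxolitinib. The differences between the drugs likewise had 0 of 8, with 1.68%, 0.153% and 0.305% of all genes in the order of the days and 0.611% for the averages, as had the change of each drug effect from day 1 to day 7, with 0% of all genes for venetoclax (37 at an unadjusted p under 0.05) and 1.53% for ruxolitinib. In counts simulated for venetoclax day 1, the comparison with the shallowest lane, the test recovered 37.04% of 2-fold and 85.87% of 4-fold changes. In those counts 200 of 655 genes were changed, which eases the adjusted threshold. Recovery with as few changed genes as passed in the data was not simulated and can be lower. The member values after each drug are therefore given with their errors, and none of them is a change that passed the main test.

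Mef2c was the member with the widest spread between the drugs on day 1. The mice given venetoclax had 16.6, 9.3 and 6.4 normalised counts on day 1 and those given its vehicle 22.7 and 15.9. The mice given ruxolitinib had 22, 36.8 and 25.2, and those given its vehicle 21.1 and 13.4. The venetoclax mice lay at or below the range of their vehicle, with 1 mouse inside it, and all ruxolitinib mice lay above both vehicle mice. The log2 fold change was -1.01 (standard error 0.48, edgeR adjusted p = 0.417) after venetoclax and 0.78 (0.33, adjusted p = 0.312) after ruxolitinib. The difference between these 2 changes was -1.80 (0.58, 95% interval -2.98 to -0.62, unadjusted p = 0.00362, adjusted p = 0.103), where 1.68% of all genes passed. It passed when only the groups compared were fitted (-1.83, adjusted p = 0.0231), where 9.31% of all genes passed, and when the lanes under 60000 counts were left out, a setting added after the data were seen (-1.93, adjusted p = 0.0455), where 3.66% did. The raw counts behind the venetoclax values were 3, 15 and 3, and the first of them, that of the mouse inside the vehicle range, was not above background. By day 3 the venetoclax mice held 21.8, 16.5 and 25.2 normalised counts against 9.2 and 16.2 in their vehicle, a log2 fold change of 0.65 (0.38), and on day 7 the change was 0.01 (0.32). The summed level of the 11 B lineage markers was 641 to 677 in the venetoclax mice of day 1 and 709 to 846 in their vehicle, and 9 of 11 had a lower value for venetoclax minus ruxolitinib on that day, with a median of -0.55 beside -0.12 over all genes and 0 that passed. Their part in the Mef2c values was not tested.

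Tal1 lay lower in all 3 venetoclax mice than in both vehicle mice on day 1, as did 15.7% of all genes. The drug-treated mice had 27.7, 28 and 25.5 normalised counts and the vehicle-treated mice 55.0 and 46.2. The venetoclax group mean of 27.1 ± 1.4 (SD, n = 3) was the lowest Tal1 mean of the 13 groups. Its log2 fold change was -0.89 (standard error 0.35, edgeR adjusted p = 0.307), -0.16 (0.32) on day 3 and 0.25 (0.31) on day 7. The change on day 7 minus that on day 1 was 1.13 (0.47, unadjusted p = 0.0209, adjusted p = 0.571). The untreated mouse of the day 1 run had 19.2 normalised counts, from a raw count of 6 that was not above background, and lay below all 10 treated mice of that run. Markers of the megakaryocyte lineage had lower values in the same venetoclax mice, 4 of 4 with a median log2 fold change of -0.69 and 0 that passed, and a summed level of 148 to 194 against 206 to 276 in the vehicle. For venetoclax minus ruxolitinib on day 1 their median was -1.05. Tfrc, the transferrin receptor and the 1 erythroid marker tested, had 266 to 283 against 417 to 474, at -0.71. It was also lower without overlap after ruxolitinib on day 1, with 259 to 355 against 401 to 441 in that vehicle. The part of these lineages in the Tal1 and Mef2c values was not tested. After ruxolitinib the 3 log2 fold changes of Tal1 were -0.02 (0.29), 0.13 (0.33) and 0.07 (0.29).

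Cd34 lay higher after ruxolitinib on day 1. On that day the drug-treated mice had 27.6, 23.8 and 23.5 normalised counts and their vehicle mice 11.9 and 15.4, and the groups did not overlap, as for Mef2c, Runx1 and Cxcr4 (4 of 8 members higher without overlap, and 27.6% of all genes). The log2 fold change was 0.82 (standard error 0.34, 95% interval 0.12 to 1.51, edgeR adjusted p = 0.293). It was 0.50 (0.37) on day 3 and 0.18 (0.30) on day 7, where the groups overlapped and the values with 1 mouse left out ran from 0.22 to 0.97 and from -0.01 to 0.39, and the mean over the days was 0.50 (0.20, unadjusted p = 0.0153, adjusted p = 0.323). The day 1 value passed when only the groups compared were fitted (0.80, adjusted p = 0.0413), where 11.8% of all genes passed. After venetoclax on day 1 the mice had 27.7, 16.2 and 12.7 against 24.8 and 19.1, and the highest of them came from the shallowest lane, with a raw count of 5. The log2 fold changes after venetoclax were -0.38 (0.42), 0.54 (0.37) and 0.05 (0.32). The 8 markers of endothelial cells, which also carry Cd34, had a summed level of 108 to 122 after ruxolitinib on day 1 and of 117 to 123 after its vehicle. The 4 megakaryocyte genes had 236 to 407 and 177 to 241, with 4 of 4 above 0 and a median of 0.39. The median was 0.58 for neutrophil genes (5 of 7 above 0), 0.77 for dendritic cell genes (2 of 3) and -0.61 for NK cell genes (2 of 8). Over all genes it was 0.13, and 0 genes of these lists passed. The part of these cell types in the Cd34 values was not tested.

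Ikzf1 lay below the vehicle in all 9 ruxolitinib mice, day by day. On day 1 the drug-treated mice had 150.0, 137 and 147 normalised counts and the vehicle-treated mice 181 and 168. On day 3 they had 138, 144 and 145 against 200 and 171, and on day 7 they had 121, 107 and 106 against 124 and 139. The groups did not overlap on any of the 3 days, where 16.3%, 7.94% and 9.62% of all genes were lower without overlap on days 1, 3 and 7. The log2 fold changes were small, -0.27 (standard error 0.18), -0.37 (0.19) and -0.22 (0.19), with a mean over the days of -0.29 (0.11, 95% interval -0.51 to -0.06, unadjusted p = 0.0131, edgeR adjusted p = 0.290), where 1.22% of all genes passed. After venetoclax the mean over the days was 0.01 (0.11), and the difference between the drugs was 0.30 (0.16, adjusted p = 0.627). Igll1 and Pax5, genes of B cell precursors, in which Ikzf1 is also used, were lower after ruxolitinib over the 3 days, with log2 fold changes of -0.86 (adjusted p = 0.00808) and -0.83 (adjusted p = 0.0264). With limma both missed the threshold (adjusted p = 0.128 and 0.444), and Pax5 passed in 4 of 15 fits with 1 mouse left out. Day by day Igll1 had -0.97 (0.30), -1.93 (0.34, adjusted p = 0.00111) and 0.32 (0.29), so that on day 7 its value had the opposite sign to that of Ikzf1. After venetoclax Igll1 was lower on day 7, at -1.54 (0.31, adjusted p = 0.0142). That value missed the threshold with limma (adjusted p = 0.288) and total count scaling (0.225). With 1 mouse left out it ran from -1.74 to -1.17, and not every such fit passed. Igll1 differed between the drugs on day 3 (2.54, adjusted p = 0.00157) and on day 7 (-1.85, adjusted p = 0.0439). With only the groups compared, the day 3 difference missed the threshold (2.55, edgeR adjusted p = 0.0987). The day 3 value after ruxolitinib missed it there too (-1.96, adjusted p = 0.186). The day 7 difference missed the threshold with limma (0.540), total count scaling (0.673) and without the 2 lanes under 30000 counts (0.0600). With 1 mouse left out this difference ran from -2.06 to -1.49, and not every such fit passed. The summed level of the 11 B lineage markers was 470 to 616 after ruxolitinib on day 3 and 884 to 903 after its vehicle, 589 to 631 and 838 to 843 on day 7, but 869 to 981 and 849 to 905 on day 1. Their part in the Ikzf1 values was not tested.

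Flt3 lay below the vehicle after ruxolitinib on days 1 and 7. On day 1 the drug-treated mice had 3.8, 4.5 and 4.9 normalised counts and the vehicle mice 7.3 and 7.5, with raw counts of 6, 8 and 9 in the drug-treated mice. On day 7 they had 8.6, 12.9 and 9.3 against 14.7 and 28.7. The groups did not overlap on either day, as for 16.3% and 9.62% of all genes, and the third day 7 value came from a raw count of 3, below background. The log2 fold changes were -0.74 (standard error 0.44, edgeR adjusted p = 0.479) and -0.76 (0.35, adjusted p = 0.999), with 0.36 (0.47) on day 3. With 1 mouse left out the day 7 value ran from -1.41 (without vehicle replicate 1) to -0.44 (without vehicle replicate 2), and the day 3 value from -0.37 (without ruxolitinib replicate 2) to 0.64. After venetoclax the values were -0.41 (0.53), 0.62 (0.52) and -0.22 (0.37).

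Kit, Cxcr4 and Runx1 showed no unadjusted p under 0.05 in any drug comparison. Kit had log2 fold changes of -0.39 (standard error 0.56), 0.05 (0.53) and -0.24 (0.45) after venetoclax and 0.21 (0.42), 0.11 (0.47) and 0.20 (0.44) after ruxolitinib. The intervals of Kit were among the widest, for instance -1.53 to 0.75 after venetoclax on day 1. Cxcr4, with higher counts, had smaller errors than Kit, with -0.08 (0.26), 0.49 (0.25) and 0.03 (0.25) after venetoclax and 0.16 (0.25), 0.27 (0.25) and -0.01 (0.25) after ruxolitinib. On day 3 the venetoclax mice had 277, 228 and 306 normalised counts of Cxcr4 and the vehicle mice 195 and 191. Runx1 had -0.10 (0.38), 0.56 (0.34) and -0.07 (0.34) after venetoclax and 0.45 (0.32), 0.30 (0.34) and 0.06 (0.33) after ruxolitinib. The venetoclax mice of day 1 differed most among themselves, with 99.8, 53.6 and 17.0 normalised counts of Runx1 from raw counts of 18, 86 and 8. On day 3 after venetoclax Cd34, Runx1, Cxcr4 and Mef2c were all higher in the 3 drug-treated mice than in both vehicle mice, 4 of 8 members where 13% of all genes were, and the median log2 fold change of the 8 members was 0.52 beside 0.06 over all genes. The vehicle mice of that day had the lowest mean of the 13 groups for Runx1 and Cxcr4 and the second lowest for Cd34 and Mef2c. In the same comparison 5 of 7 neutrophil genes were above 0, with a median of 0.84, and 8 of 9 T cell genes below 0, with a median of -0.996, and 0 of either list passed. Their part in the member values was not tested.

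**Figure D2:**
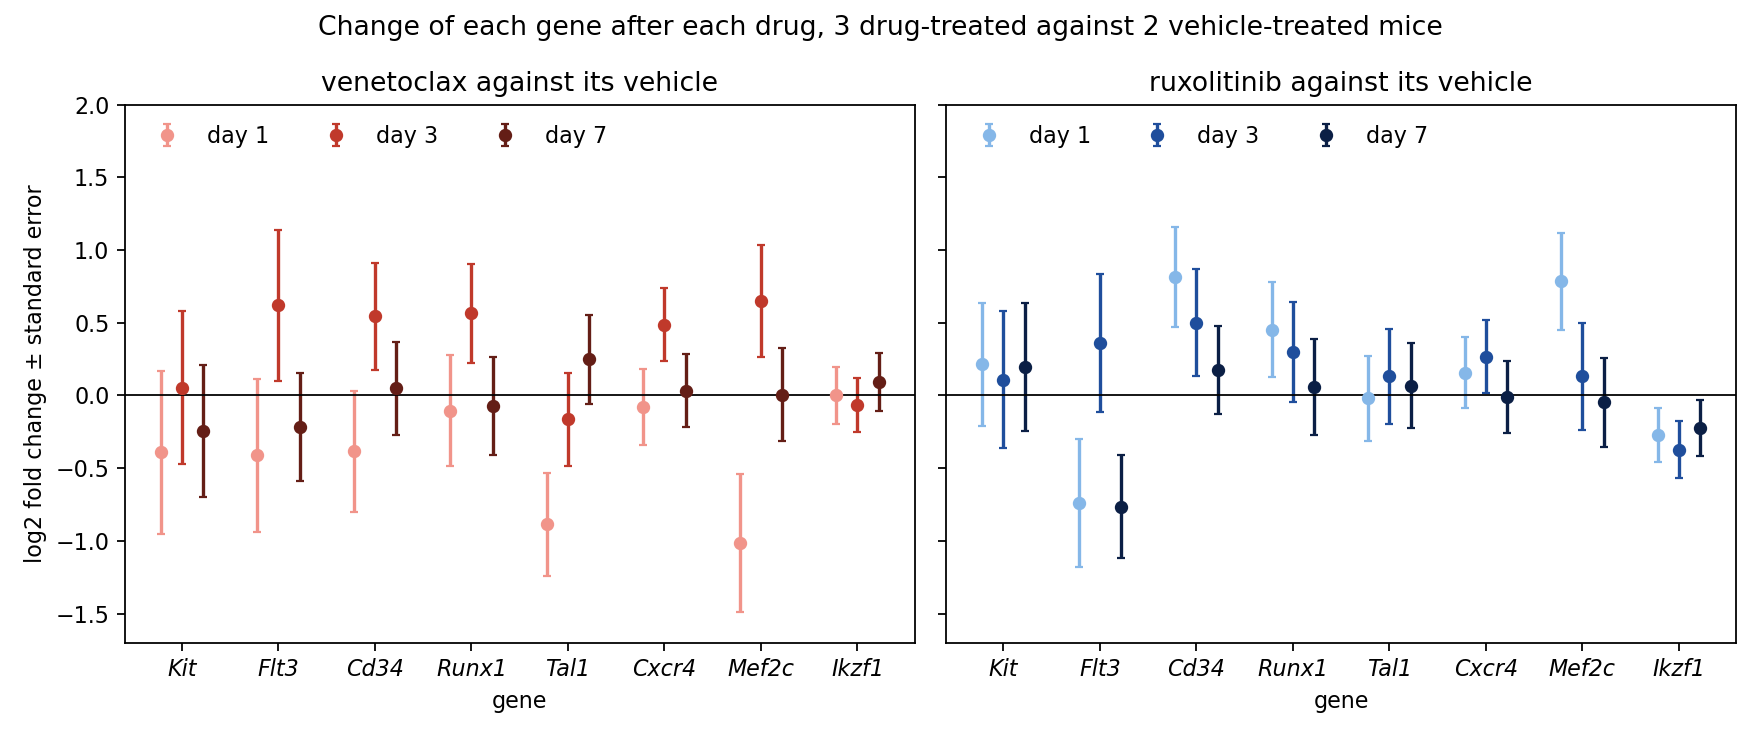
Log2 fold change (y axis) of each gene (x axis) after venetoclax and after ruxolitinib against the vehicle of the same day, with bars of 1 standard error, 3 drug-treated and 2 vehicle-treated mice per point. No value passed the adjusted threshold, and the values with the largest size are Mef2c and Tal1 after venetoclax on day 1, at -1.01 and -0.89.

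The ligands and niche partners of these receptors were covered by 12 probes, of which 10 were tested. One of them passed in a drug comparison. Cxcl12, the ligand of Cxcr4, stood at 198 ± 23.6 normalised counts (SD, n = 3) in ruxolitinib mice of day 1 compared to 51.7 ± 1.91 (SD, n = 2) in their vehicle mice, and the lowest drug-treated mouse had 171 where the highest vehicle mouse had 53.1. The log2 fold change was 1.93 (standard error 0.41, edgeR adjusted p = 0.00533) and that over the 3 days 1.12 (0.24, adjusted p = 0.0105). Both missed the threshold with limma (1.91, adjusted p = 0.0667, and 1.04, adjusted p = 0.189), the value over the days also with the replicate number as a block (0.89, adjusted p = 0.0611), and the day 1 value passed in 3 of 5 fits with 1 mouse left out. Its receptor Cxcr4 had 228 ± 15 and 205 ± 19 normalised counts in the same mice. Among 18 other progenitor and blood cell receptors 0 passed against the vehicle on a single day, and Il7r, the interleukin 7 receptor of lymphoid progenitors, passed over the 3 days of ruxolitinib with -0.77 (0.17, adjusted p = 0.0105), though not with limma (-0.73, adjusted p = 0.189). The receptors with the largest values on day 1 were Itga4, an integrin that anchors progenitors, with -0.82 (0.35, adjusted p = 0.353) after venetoclax, and Cd38 with 0.89 (0.39, adjusted p = 0.320) after ruxolitinib. Of 17 other transcription factors tested, 0 passed against the vehicle on a single day. Over the 3 days Tcf7, a factor of T cell precursors, passed after venetoclax with -1.39 (0.33, adjusted p = 0.00602), as did the T cell markers Cd3d (-0.94, adjusted p = 0.0153) and Cd8a (-1.90, adjusted p = 0.0139), with 8 of 9 T cell genes below 0 and a median of -0.57, and Pax5 after ruxolitinib, as given above. Tcf7 also differed between the drugs on day 1, at -3.08 (0.88, adjusted p = 0.0319). With 1 mouse left out this difference ran from -3.52 to -2.59, and not every such fit passed. With limma both Tcf7 values missed the threshold (adjusted p = 0.0612 and 0.191), the second also with DESeq2 (0.120). Cd3d and Cd8a missed it with limma too (adjusted p = 0.0951 and 0.0504). Gfi1, a repressor of granulocyte progenitors, had 0.96 (0.31, adjusted p = 0.114) after venetoclax on day 1 and Cebpb 0.29 (0.24, adjusted p = 0.638) after ruxolitinib.

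The vehicles were also compared with each other and with untreated mice. The mean of the ruxolitinib vehicle minus that of the venetoclax vehicle lay between -0.06 and 0.22 on the log2 scale for the 8 members, with adjusted p-values of 1.00, and 0% of all genes passed (18 at an unadjusted p under 0.05). The mean of the 6 vehicle groups minus the untreated mice lay between -0.15 and 0.68, with 0% of all genes called (75 at an unadjusted p under 0.05). DESeq2 called 0 genes in both comparisons, and limma called 0 and 1. The 3 untreated mice differed widely from each other, 1 in each run. They had 6.4, 17.2 and 40.4 normalised counts of Cd34, 51.2, 69.5 and 128 of Runx1, 19.2, 47.1 and 64.0 of Tal1, and 147, 199 and 303 of Cxcr4 in the runs of days 1, 3 and 7. Runx1 and Cxcr4 were lowest in the untreated mouse of the first run and highest in that of the third, and the Cd34 and Tal1 counts of that first mouse were not above background. Mef2c had 25.6, 16.4 and 43.8, Flt3 had 12.8, 3.7 and 6.7, Kit had 19.2, 3.7 and 23.6, and Ikzf1 had 144, 179 and 162. The raw counts of the untreated mouse in the day 1 run were as low as 2 for Cd34 and 4 for Flt3.

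Most members passed the test between days. This comparison was chosen after the data were seen, and each day is also a run of 11 lanes read together. Among the vehicle-treated mice, 6 of 8 members passed on day 7 against day 1 (4 mice against 4), where 30.1% of all tested genes passed: 5 of 8 were higher, where 20% of all genes were, and 1 was lower, where 10.1% were. The median log2 difference was 0.77 over the members and 0.19 over all genes. Among the drug-treated mice of the same runs (6 against 6), 7 of 8 members passed where 35.4% of all genes did. Between days 3 and 1 of the vehicle-treated mice 0 of 8 members and 0% of all genes passed (13 at an unadjusted p under 0.05, none of them a member, and 0 by DESeq2 and by limma), and the members lay between -0.46 and 0.20. The cause of the difference was not tested, and effects of the day and of the run cannot be told apart.

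Cd34 had 24.8, 19.1, 11.9 and 15.4 normalised counts in the 4 vehicle-treated mice of day 1 and 54.7, 22.5, 41.8 and 51.2 in those of day 7. Only the second of the day 7 mice, with a raw count of 8, lay within the day 1 range. The log2 difference was 1.36 (standard error 0.26, edgeR adjusted p = 0.000384) in vehicle-treated and 1.25 (0.23, adjusted p = 5.76e-05) in drug-treated mice. With limma after background subtraction both missed the threshold (1.25, adjusted p = 0.275, and 1.35, adjusted p = 0.0883). Without replicate 1 of the venetoclax vehicle on day 7 the vehicle value was 0.86 (adjusted p = 0.108). Mef2c had 22.7, 15.9, 21.1 and 13.4 in the vehicle-treated mice of day 1 and 49.6, 39.3, 45.2 and 32.8 in those of day 7, with no overlap. Its log2 differences were 1.31 (0.26, adjusted p = 0.000514) and 1.41 (0.25, adjusted p = 3.95e-05), and its drug-treated mice of the 2 days overlapped. For Flt3 the vehicle-treated mice had 11.9, 6.4, 7.3 and 7.5 on day 1 and 18.8, 14, 14.7 and 28.7 on day 7. These vehicle-treated groups did not overlap either, and the log2 differences were 1.14 (0.30, adjusted p = 0.00397) and 1.23 (0.30, adjusted p = 0.00102). The vehicle value of Flt3 missed the threshold without the same mouse (0.98, adjusted p = 0.130) and with DESeq2 (0.98, adjusted p = 0.0575). In all 10 treated mice of each run the medians of Flt3 were 6.37, 6.34 and 14.4, of Cd34 21.3, 22.9 and 47.5, and of Mef2c 18.9, 22.7 and 44.6, on days 1, 3 and 7. The negative control probes, scaled in the same way, had medians of 1.6, 2.02 and 3.51 in the 3 runs.

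Runx1 had 52.9, 54.2, 60.4 and 57.9 normalised counts in the vehicle-treated mice of day 1 and 119, 101, 93.7 and 104 in those of day 7. The log2 differences were 0.90 (standard error 0.26, edgeR adjusted p = 0.00914) in vehicle-treated and 0.72 (0.22, adjusted p = 0.0115) in drug-treated mice. The first missed the threshold without replicate 1 of the venetoclax vehicle on day 7 (0.82, adjusted p = 0.0689) and the second without venetoclax replicate 3 of day 1 (0.51, adjusted p = 0.0682). Cxcr4 had 221, 176, 218 and 191 on day 1 and 334, 317, 285 and 326 on day 7, with log2 differences of 0.65 (0.19, adjusted p = 0.0109) and 0.62 (0.16, adjusted p = 0.00273). The first missed the threshold with TMM scaling (0.42, adjusted p = 0.0757), all 20 housekeeping probes (0.45, 0.0573) and limma after background subtraction (0.65, 0.0813). The vehicle call of Cxcr4 was lost in 3 of 8 fits with 1 mouse left out (adjusted p up to 0.0681), those without replicate 2 of either vehicle on day 1 or replicate 1 of the venetoclax vehicle on day 7. The vehicle-treated mice of the 2 days did not overlap for either gene, while the drug-treated mice overlapped for Runx1. In vehicle-treated mice 5 of 8 members were higher without overlap, with Tal1 among them, where 22.6% of all genes were. Tal1 had 55.0, 46.2, 51.3 and 35.3 on day 1 and 56.6, 67.4, 65.9 and 61.5 on day 7. Its difference missed the threshold in vehicle-treated mice, at 0.43 (0.23, adjusted p = 0.166), and passed in drug-treated mice, at 1.04 (0.21, adjusted p = 0.000164), a group that holds the 3 low venetoclax mice of day 1. Tfrc, the erythroid marker, was also higher in the drug-treated mice, at 0.93 (0.14, adjusted p = 1.37e-05), and its part in the Tal1 value was not tested. Kit passed in neither kind of mice, with 0.24 (0.35, adjusted p = 0.640) and 0.31 (0.32, adjusted p = 0.479). Ikzf1 was the one member that was lower on day 7. The vehicle-treated mice had 166, 155, 181 and 168 on day 1 and 119, 132, 124 and 139 on day 7, again without overlap (11.1% of all genes were lower in this way), with log2 differences of -0.39 (0.15, adjusted p = 0.0442) and -0.32 (0.12, adjusted p = 0.0425). Both lay close to the threshold. Leaving out any 1 of the 8 vehicle-treated mice lost the call (adjusted p = 0.0547 to 0.182), as did 8 of the 12 fits without a drug-treated mouse (up to 0.119), the drug-treated fit without the 2 lanes under 30000 counts (0.123) and, for vehicle-treated mice, limma (0.0946). Total count scaling lost both calls (-0.15, adjusted p = 0.626, and -0.21, adjusted p = 0.394).

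Without replicate 1 of the venetoclax vehicle on day 7, 1 of 8 members passed in vehicle-treated mice, Mef2c, where 15.7% of all genes did. Leaving out any other vehicle-treated mouse left 4 to 5 members, where 17.3% to 27.2% of all genes passed, and leaving out any drug-treated mouse left 6 to 7 of 8 in the drug-treated comparison, where 29.5% to 35.4% did. The median of all genes moved from 0.19 to -0.01 with TMM scaling and to 0.44 with total count scaling. No member changed sign, but a scaling moves all genes of a lane alike, so that the kept signs are no test of stability. The vehicle call of Cxcr4 and both calls of Ikzf1 were lost under another scaling, as given above.

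**Figure D3:**
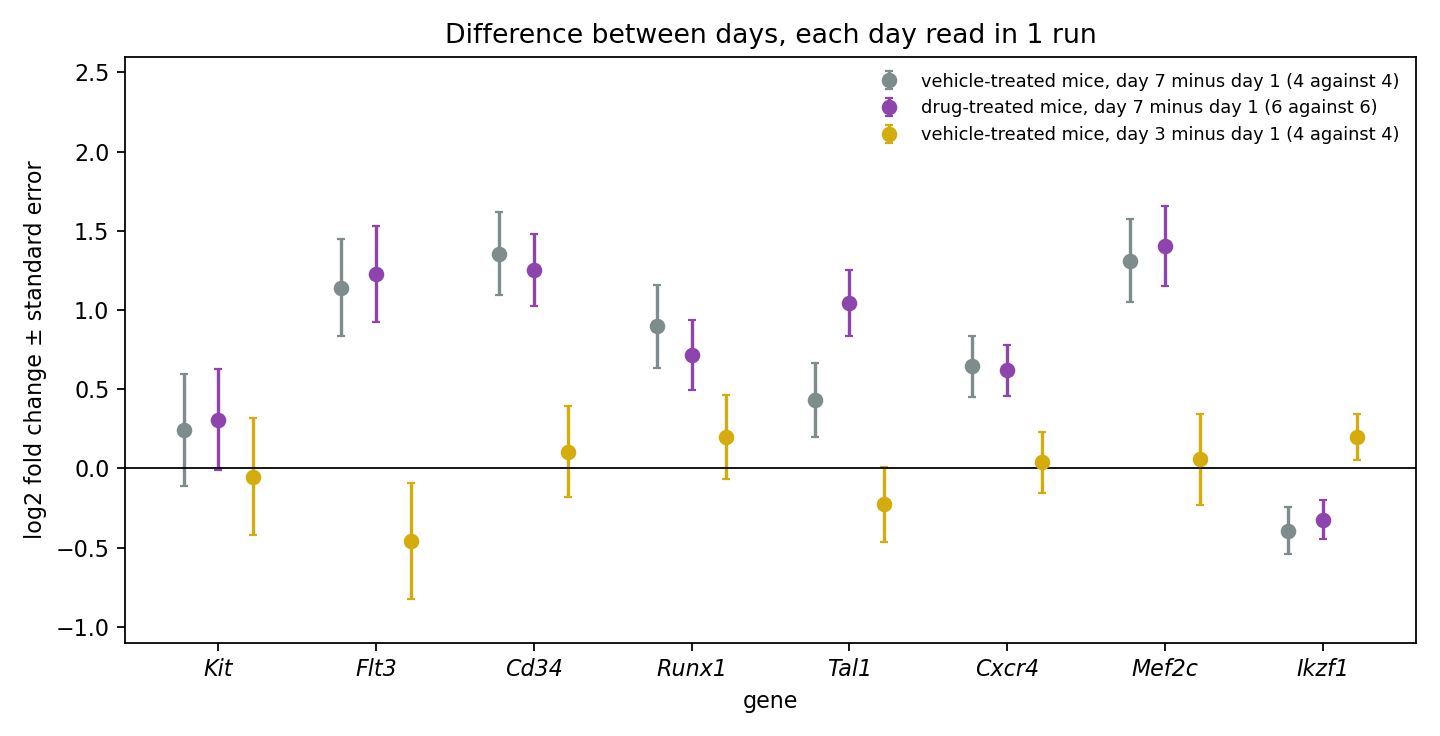
Log2 difference between days (y axis) of each gene (x axis) with bars of 1 standard error: day 7 minus day 1 in vehicle-treated and in drug-treated mice, and day 3 minus day 1 in vehicle-treated mice. Cd34, Mef2c and Flt3 lie between 1.14 and 1.41 in both kinds of mice on day 7, Ikzf1 lies below 0 and the day 3 values lie between -0.46 and 0.20.

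Genes of other lists also differed between the same days, some lists in both directions and some in 1. The counts stand beside the 20% of all genes that were higher and the 10.1% that were lower, and several lists lie near or below these shares. Of the 7 neutrophil lineage genes, 4 were higher and 2 lower on day 7 in vehicle-treated mice. Elane and Mpo, granule genes of promyelocytes, were higher, with log2 differences of 2.35 (standard error 0.44, edgeR adjusted p = 0.000398) and 1.89 (0.34, adjusted p = 0.000322). Of the genes also used by later neutrophils, Cxcr2 and Ltf were higher, at 1.31 (adjusted p = 0.000322) and 1.28 (adjusted p = 0.00397), and S100a8 and Csf3r were lower, at -0.998 (adjusted p = 0.00507) and -0.63 (adjusted p = 0.0248). Elane had 165 to 189 and 102 to 137 normalised counts in the 2 vehicle groups of day 1 and 708 to 899 and 674 to 680 in those of day 7. The summed level of the list was 79392 to 101811 on day 1 and 49188 to 58746 on day 7, most of it S100a8, which alone had 72361 to 95274 and 36938 to 46115. Of 18 progenitor and blood cell receptors 5 were higher and 3 lower, among them Cd33, a receptor of myeloid progenitors, at 1.05 (0.29, adjusted p = 0.00627), Thy1 at 1.55 (0.27, adjusted p = 0.000140) and Il7r at -0.98 (0.23, adjusted p = 0.00207). Of 17 transcription factors 2 were higher and 2 lower, with Irf8, a factor of monocyte and dendritic cell progenitors, at 0.69 (0.19, adjusted p = 0.00519) and Gfi1 at -1.05 (0.25, adjusted p = 0.00247). Of 11 B lineage genes 4 were higher and 3 lower, and of 10 ligands and niche partners 2 were higher and 1 lower. Of 8 monocyte and macrophage genes 3 were higher and 0 lower, with Cd68, a lysosomal protein of macrophages, at 1.35 (0.28, adjusted p = 0.000641), and their summed level was 469 to 604 on day 1 and 600.4 to 754 on day 7. Of 8 NK cell genes 2 were higher and 0 lower, of 9 T cell genes 1 was higher and 0 lower, and of 4 megakaryocyte genes 1 was higher and 1 lower. Of 3 mast cell and basophil genes, which belong to cells that also carry Kit, 2 were higher and 0 lower, while Kit itself did not pass. All 8 endothelial genes missed the threshold in vehicle-treated mice, while 1 of 8, Eng, passed in drug-treated mice (0.60, adjusted p = 0.0395), with vehicle-treated summed levels of 104 to 151 on day 1 and 109 to 111 on day 7. The part of these cell types in the values of the 8 genes was not tested.

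The 8 genes were also compared with each other across the 33 mice, as a description. Runx1 and Cxcr4 were the most alike pair, with a Pearson r of 0.86 (Spearman 0.86), and 0.76 once the mean of each run was removed. Mef2c and Ikzf1 were the most opposed, at -0.61 (Spearman -0.75), and -0.32 within runs. Of the 353 genes with a mean of at least 20 normalised counts, the most like a member included Lcn2, an antimicrobial protein of neutrophils, and Selplg, a selectin ligand of leukocytes, for both Cd34 (0.90 and 0.90) and Cxcr4 (0.91 and 0.93). They also included Il1rap, a subunit of the interleukin 1 receptor, for Runx1 (0.90), Cd33 and Cd47 for Mef2c (0.88 and 0.87), Ctss for Tal1 (0.81), and Smad3 and Pou2f2 for Ikzf1 (0.77 and 0.73). Within runs the values of these pairs lay between 0.55 and 0.84. Kit and Flt3 were below that mean level. The mice share a housekeeping factor within each lane and differ in depth, which can raise such values.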

How the data were processed

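Bone marrow RNA of 33 mice was hybridised to NanoString nCounter probes, which are counted as barcodes without amplification. The deposited values are raw counts per probe, which the authors exported 1 lane per mouse before any normalisation; the normalised values of their nCounter Advanced Analysis were not used here. The methods name a PanCancer immune panel and the series text an immunology panel. The header of the day 3 run names day 2, and the day was taken from the labels.

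The size factor of a lane was the geometric mean of 11 housekeeping probes (of 20), those above background in all lanes. A gene needed counts above background in 2 lanes or more, as 655 of 750 had. The main test was edgeR's quasi-likelihood test (edgeR 4.0.16, R 4.3.3), with all 13 groups in the same model, p-values adjusted by Benjamini-Hochberg over the 655 genes and a threshold of 0.05. The common dispersion was 0.0406, with 20 residual degrees of freedom. Errors are standard errors of the log2 fold change, and intervals are 95% intervals. No 2 lanes were identical. The test was tested on counts simulated for venetoclax day 1 in which 200 of 655 genes were changed: 121 were called, of which 98.35% were changed, and 0 were called in a contrast with no change.

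The 8 members and the gene lists were chosen with earlier results of these data known. Genes outside the members are named if they passed the threshold in a drug comparison, or had the largest change of their list on day 1 among those with a mean of at least 20, or were among the 2 most like a member, of which some are not reported here; those named between days were chosen after their values were seen. Alternatives were TMM, total count, all 20 and the 10 most stable housekeeping probes, DESeq2 1.42.0, limma 3.58.1 with and without background subtraction, other filters, only the groups compared, pooled vehicles, untreated mice as control, a replicate block, and lanes left out. Tables were made with Python 3.11.15, numpy 2.4.6 and pandas 2.3.3.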

Additional observations from a re-analysis of the deposited data

How the results depend on the processing

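The drug comparisons depended on which samples were fitted. With only the groups compared, 1 member passed after ruxolitinib on day 1 (Cd34, 0.80, with 11.8% of all genes) and 1 differed between the drugs on day 1 (Mef2c, -1.83, with 9.31%). Without the lanes under 60000 counts the same gene, Mef2c, differed at -1.93, again 1 member, with 3.66% of all genes. With untreated mice as control, 1 member passed after venetoclax on day 7 (10.1% of all genes) and 2 after ruxolitinib on day 7 (13.3%), comparisons that cross runs, and Flt3 after ruxolitinib on day 7 was 0.86 in place of -0.76, a value set against untreated lanes of which 0 of 3 had Flt3 above background. Between day 7 and day 1, limma after background subtraction left 1 member in vehicle-treated mice (7.33% of all genes) and 3 in drug-treated mice (21.4%). Leave-one-out fits left 1 to 5 members in vehicle-treated mice (15.7% to 27.2% of all genes) and 6 to 7 in drug-treated mice (29.5% to 35.4%). Cxcr4 in vehicle-treated mice missed the threshold with TMM scaling (0.42, adjusted p = 0.0757) and all 20 housekeeping probes (0.45, 0.0573), Flt3 with DESeq2 (0.98, 0.0575) and Ikzf1 with total count scaling (-0.15, 0.626), limma (-0.38, 0.0946) and no filter (-0.39, 0.0560), and Runx1 with limma (0.88, 0.0943). In drug-treated mice Ikzf1 missed it with total count scaling (-0.21, 0.394), only the groups compared (-0.32, 0.0813) and no filter (-0.32, 0.0541). In vehicle-treated mice Tal1 passed with only the groups compared (0.45, 0.0243). Of all genes, 131 were higher and 66 lower by housekeeping scaling, 94 and 112 by TMM, 170 and 25 by total count, 96 and 106 by all 20 housekeeping probes, 86 and 91 by DESeq2. By limma after background subtraction 26 were higher and 22 lower.

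The replicate numbers are shared between groups. Deviations from the group mean were correlated between same-numbered drug-treated and vehicle-treated mice, with 12 correlations from -0.35 to 0.30. In a vehicle group of 2 mice the deviations mirror each other, so these values cannot decide whether the numbers mark pairs. With the replicate number as a block, 0 members passed in any drug comparison, where 0% to 2.29% of all genes did. Between days 7 and 1 of vehicle-treated mice 6 members passed under this block, where 32.8% of all genes did. A mean raw count of at least 20 leaves 396 genes, without Kit and Flt3. Of 129 values of members with an unadjusted p over 0.05, 52 changed sign under some alternative. The fits with 1 mouse left out and with untreated mice as control were not counted there. Depth limits Kit and Flt3 most.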
